A study of Mus musculus with 6 samples.

Results

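The genes described here are the 10 core genes of de novo fatty acid synthesis, the route by which the liver turns glucose carbon into fat. They were taken by symbol from the deposited gene table: the transcription factor genes Srebf1 and Mlxipl, the enzyme genes Acly, Acaca, Acacb, Fasn, Me1, Elovl6 and Scd1, and the lipogenic cofactor gene Thrsp. All 10 were present among 30889 genes in the table, and all 10 were among the 18071 genes that passed the filter on low counts. Messenger RNA of mouse liver was sequenced after 14 days of treatment by mouth, in 3 control libraries from mice given phosphate buffered saline and 3 extract libraries from mice given a water extract of Emilia sonchifolia, a herb of the daisy family. The dose, strain, sex and age of the mice are not given in the sources used here, and no label says whether each library came from its own animal, so the p-values speak only of how these libraries vary, and part of that variation may be technical.

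De novo synthesis starts with citrate, which leaves the mitochondrion and is split by ATP citrate lyase (Acly) into cytosolic acetyl-CoA. Acetyl-CoA carboxylase (Acaca, and Acacb at the mitochondrial surface) makes malonyl-CoA, and fatty acid synthase (Fasn) builds palmitate from it with reducing power in the form of NADPH, part of which comes from malic enzyme (Me1). Elovl6 lengthens palmitate and Scd1 adds the double bond that gives oleate and palmitoleate. In liver the transcription of these enzymes is driven by SREBP1, the product of Srebf1, which responds to insulin and to the oxysterol receptor LXR, and by ChREBP, the product of Mlxipl, which responds to glucose metabolites.

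Of the 10 genes, 7 rose with the extract (Srebf1, Acly, Acaca, Acacb, Fasn, Me1 and Elovl6), 0 fell, and Mlxipl, Scd1 and Thrsp did not pass the test (edgeR quasi-likelihood test, Benjamini-Hochberg adjusted over all genes tested, threshold 0.05). Over all 18071 genes tested, 26.9% were called, 14.2% higher and 12.8% lower with the extract. The median log2 fold change was 0.93 for the 10 genes and -0.02 for all genes tested. The FPKM values of the groups did not overlap, with the extract higher, for 8 of the 10 genes, against 17.7% of all genes, and did not overlap with the extract lower for 0 of the 10, against 26.9% of all genes (44.6% in either direction). FPKM, the authors' unit, is a fragment number scaled to gene length and to the mapped fragments of the library. The 15 other settings that gave a value for each gene kept the call for Srebf1, Acaca, Acacb, Fasn, Me1 and Elovl6, and 5 of the 15 kept it for Acly.

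The libraries held 51219533 to 61432016 estimated counts, and the 10 genes had between 1836 and 141995 counts each in a library. The second principal component of all tested genes held 19.6% of the variance and had controls 1 and 3 at opposite ends. Controls 1, 2 and 3 were at 23.7, 5.29 and -27.6 on it, and the extract libraries at -3.78 to 3.67. The summed FPKM of 6 pancreatic acinar markers was 5.89, 6.58 and 55.2 in controls 1, 2 and 3 and 55.7 to 61.1 in the extract libraries. That of 5 skeletal muscle markers was 183, 137 and 0.789 in the controls and 170 to 244 in the extract libraries. With control 3 included 0 of these genes was called, and without it 6 pancreatic markers and 1 muscle marker were called (edgeR). Hepatocyte markers such as Alb and Apob were abundant in every library, with a summed level of 44561 to 53134 FPKM over 9 genes in control and 43496 to 43944 in extract, and 4 of these 9 genes rose and 3 fell. Adipocytes make fatty acids with the same enzymes. Of 7 adipocyte markers present, 4 (Adipoq, Plin1, Retn and Slc7a10) were under 1 FPKM in all 6 libraries, Adipoq being at 0 in 2 of them and Retn in 4. Of 3 tested adipocyte markers 1 rose and 1 fell, and the summed level of 7 such markers overlapped, at 6.72 to 9.21 in control and 7.10 to 10.9 in extract. Against a fold change of 1.2 the higher call was kept and the lower one was not (edgeR). All 10 Kupffer cell markers, all 6 red cell markers and all 8 neutrophil markers fell, with summed levels of 457 to 480, 1272 to 1616 and 384 to 455 FPKM in control and 275 to 292, 198 to 236 and 171 to 179 in extract. The median log2 fold change was -0.66 for the Kupffer cell, -2.67 for the red cell and -4.14 for the neutrophil markers (edgeR). The part of these cell types in the results below was not tested, and in bulk tissue fewer cells of a type and less RNA per cell cannot be told apart.

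**Figure D1:**
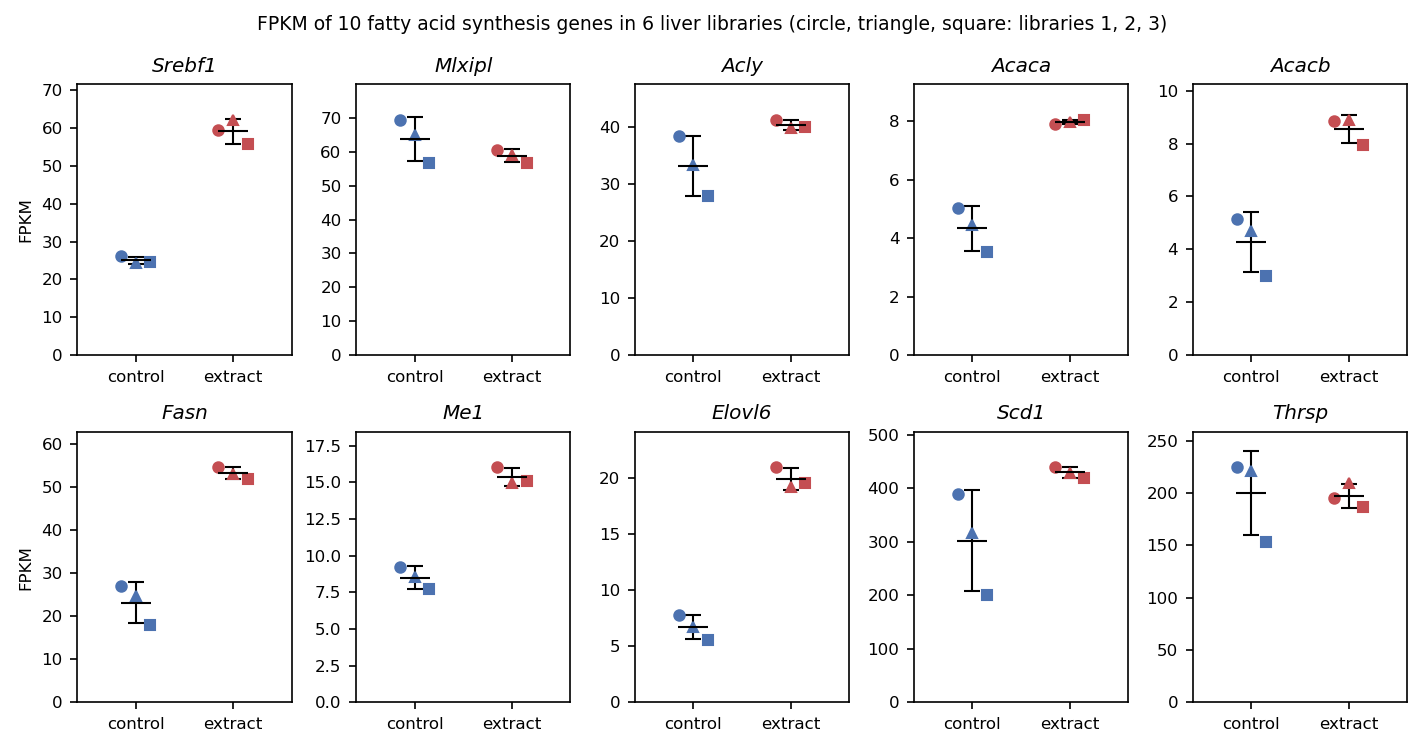
FPKM of the 10 genes in the 3 control (blue) and 3 extract (red) libraries, on linear axes from 0, with the mean and SD of each group in black. For Srebf1, Acaca, Acacb, Fasn, Me1 and Elovl6 the groups lie far apart, for Mlxipl and Thrsp they overlap, and control 3 (blue square) is the lowest control for every gene but Srebf1.

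The 2 transcription factor genes were compared first. Srebf1 (ENSMUSG00000020538, GRCm38 chromosome 11, 60199089 to 60222581, minus strand) read 26.1, 24.4 and 24.6 FPKM across controls 1 to 3, against 59.5, 62.2 and 55.7 FPKM across extract 1 to 3. Every extract library was above every control, and the control libraries lay within a narrow band. It rose 2.46-fold, with a log2 fold change of 1.299 and an SE of 0.05 (edgeR adjusted p = 4.18e-06, adjusted p 2.48e-134 to 0.000403 over the other settings). Its p ranked 19 among the 18071 genes tested. Mlxipl (ENSMUSG00000005373, chromosome 5, 135089890 to 135138382, plus strand) read 69.4, 65.0 and 56.7 FPKM across controls 1 to 3, against 60.5, 59.1 and 56.7 FPKM across extract 1 to 3. The groups overlapped, and its log2 fold change was -0.05 with a 95% interval of -0.21 to 0.10 (edgeR adjusted p = 0.601). None of the 15 other settings called Mlxipl, with an adjusted p of 0.0871 to 0.883, and its value ran from -0.12 without control 3 to 0.01 without control 1. Within a library, Srebf1 stood at 0.376, 0.376 and 0.435 of the Mlxipl level in the controls and at 0.984, 1.05 and 0.982 of it in the extract libraries, a ratio that does not depend on the scaling of the libraries and was not tested. The table counts each gene as a whole, so products of different start sites, such as SREBP1a and SREBP1c, could not be told apart.

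Srebf1 has 3 windows and Mlxipl 2, and the bases before the starts are shown because these genes encode the regulators that differed in response. RefSeq on GRCm38.p6 held windows for 9 of the 10 genes, 13 windows in all, and the 250 bases before each start were searched on both strands for 4 motifs. These were the sterol response element that SREBP binds (searched as TCACNCCAC), the E-box (CACGTG), the NF-Y box (CCAAT) and the Sp1 box (GGGCGG). The sequences run 5′ to 3′ on the strand of the gene and end at the base before the start, with motif matches in capitals, where a match on the other strand is printed as its reverse complement. The window given first here for each gene lies upstream of its span and the others in its introns, per GENCODE M21: Srebf1 at chr11:60222582-60222831, chr11:60220628-60220877 and chr11:60210472-60210721, all minus strand, and Mlxipl at chr5:135089640-135089889 and chr5:135106641-135106890, both plus strand.
Srebf1, upstream start: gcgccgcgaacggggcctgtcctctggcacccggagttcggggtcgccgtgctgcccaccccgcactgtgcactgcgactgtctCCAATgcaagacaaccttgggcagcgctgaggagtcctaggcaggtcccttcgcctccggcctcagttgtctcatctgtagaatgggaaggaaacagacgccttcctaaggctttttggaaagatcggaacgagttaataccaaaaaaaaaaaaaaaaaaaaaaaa
Srebf1, first intronic start: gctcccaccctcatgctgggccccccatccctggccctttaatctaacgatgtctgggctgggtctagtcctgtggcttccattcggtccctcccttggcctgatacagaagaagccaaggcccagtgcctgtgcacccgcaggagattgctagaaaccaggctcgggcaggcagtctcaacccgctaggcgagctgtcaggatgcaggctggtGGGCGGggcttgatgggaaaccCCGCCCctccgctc
Srebf1, second intronic start: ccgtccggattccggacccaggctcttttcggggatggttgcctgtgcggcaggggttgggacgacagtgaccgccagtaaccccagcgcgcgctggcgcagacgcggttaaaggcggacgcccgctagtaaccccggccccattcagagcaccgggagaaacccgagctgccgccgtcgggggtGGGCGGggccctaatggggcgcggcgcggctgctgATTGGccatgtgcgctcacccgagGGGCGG
Mlxipl, upstream start: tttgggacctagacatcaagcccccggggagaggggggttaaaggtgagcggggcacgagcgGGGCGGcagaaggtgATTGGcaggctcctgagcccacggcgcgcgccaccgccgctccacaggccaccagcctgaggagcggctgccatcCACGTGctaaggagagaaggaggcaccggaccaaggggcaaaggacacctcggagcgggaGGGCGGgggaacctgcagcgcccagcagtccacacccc
Mlxipl, intronic start: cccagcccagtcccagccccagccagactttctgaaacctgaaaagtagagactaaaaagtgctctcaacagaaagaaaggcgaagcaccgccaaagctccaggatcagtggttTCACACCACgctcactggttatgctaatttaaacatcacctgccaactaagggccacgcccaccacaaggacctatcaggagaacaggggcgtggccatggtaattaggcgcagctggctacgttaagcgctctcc

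The sterol response element occurred in 1 of the 13 windows, at 136 to 128 bases before the intronic Mlxipl start, and in 1.05% of all 32851 windows. The E-box also occurred in 1 of the 13, at 98 to 93 bases before the upstream Mlxipl start, against 6.02% of all windows. The NF-Y box was in 7 of the 13 windows (33.8% of all windows) and the Sp1 box in 5 of them (32.7% of all windows). The upstream Srebf1 window held 1 NF-Y box, at 166 to 162 bases before the start, and the first intronic one 2 Sp1 boxes. The second intronic Srebf1 window held both motifs, an NF-Y box at 30 to 26 bases and Sp1 boxes at 65 to 60 and 6 to 1 bases before the start. These matches describe letters in a short window, and no match says only that these letters are not in it.

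**Figure D2:**
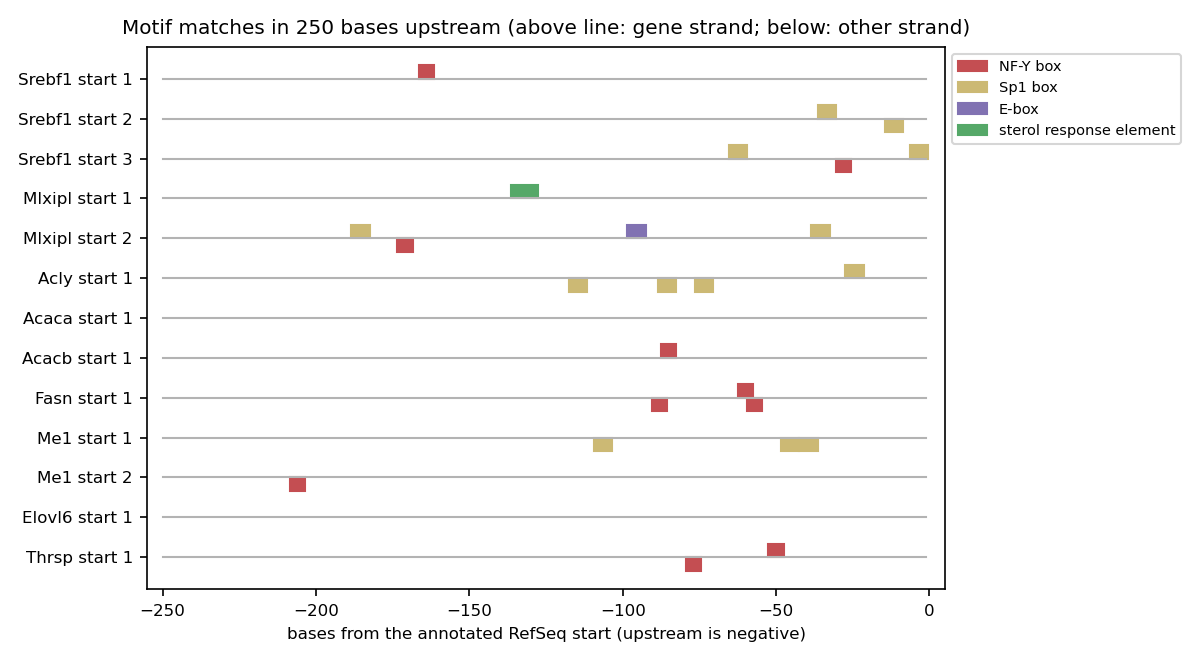
Positions of the 4 motifs in the 250 bases before each of the 13 annotated RefSeq starts of 9 genes (horizontal axis, bases from the start), with matches on the strand of the gene above the line and on the other strand below it. Mlxipl start 1 is the intronic start and Mlxipl start 2 the upstream one. Fasn holds 3 NF-Y boxes within 90 bases of its start, and the Acaca and Elovl6 windows hold no match. The only Acaca window lies in an intron of the gene, so the bases upstream of its span were not searched. Of the Elovl6 window, 129 bases are exonic.

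The enzyme genes that make and use malonyl-CoA, Acaca, Acacb and Fasn, all rose. Fasn (ENSMUSG00000025153, chromosome 11, 120805846 to 120824547, minus strand) read 27.0, 24.6 and 18.0 FPKM across controls 1 to 3, against 54.7, 53.1 and 51.9 FPKM across extract 1 to 3. The groups were apart, with control 3 the lowest library. Fasn rose 2.40-fold, with a log2 fold change of 1.26 and an SE of 0.13 (edgeR adjusted p = 0.000302). The log2 fold change of Fasn was 1.11 without control 3 (edgeR adjusted p = 1.80e-05). Acaca (ENSMUSG00000020532, chromosome 11, 84129672 to 84401645, plus strand), the cytosolic carboxylase, read 5.03, 4.47 and 3.52 FPKM across controls 1 to 3, against 7.92, 7.99 and 8.05 FPKM across extract 1 to 3. It rose 1.92-fold, with a log2 fold change of 0.94 and an SE of 0.11 (edgeR adjusted p = 0.000636). Acacb (ENSMUSG00000042010, chromosome 5, 114146535 to 114250761, plus strand), whose product makes the malonyl-CoA that restrains fatty acid entry into mitochondria, read 5.13, 4.69 and 3.003 FPKM across controls 1 to 3, against 8.84, 8.90 and 7.94 FPKM across extract 1 to 3. It rose 2.09-fold, with a log2 fold change of 1.06 and an SE of 0.17 (edgeR adjusted p = 0.00278). For both carboxylase genes every extract library was above every control. The ratio of Acaca to Acacb was 0.979, 0.953 and 1.17 in the controls and 0.897, 0.898 and 1.01 in the extract libraries, and the groups overlapped.

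The Fasn window, chr11:120824548-120824797 on the minus strand and upstream of the gene span, is shown because it held the most NF-Y boxes of the 13. The boxes lie at 90 to 86, 62 to 58 and 59 to 55 bases before the start, and the last 2 overlap on opposite strands.
Fasn: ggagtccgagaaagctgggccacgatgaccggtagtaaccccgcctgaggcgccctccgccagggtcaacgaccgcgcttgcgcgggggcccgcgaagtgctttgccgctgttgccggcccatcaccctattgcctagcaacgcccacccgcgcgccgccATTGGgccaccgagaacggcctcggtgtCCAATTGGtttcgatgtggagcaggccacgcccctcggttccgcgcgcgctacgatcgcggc

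Elovl6 had the largest rise of the 10 genes. Elovl6 (ENSMUSG00000041220, chromosome 3, 129532355 to 129634971, plus strand) read 7.78, 6.73 and 5.58 FPKM across controls 1 to 3, against 20.9, 19.1 and 19.5 FPKM across extract 1 to 3. The lowest extract library was far above the highest control. Elovl6 rose 3.10-fold, with a log2 fold change of 1.63 and an SE of 0.11 (edgeR adjusted p = 4.72e-05). Scd1 (ENSMUSG00000037071, chromosome 19, 44394455 to 44407709, minus strand), the desaturase, was the most abundant of the 10, with 389, 317 and 202 FPKM across controls 1 to 3, against 440, 429 and 420 FPKM across extract 1 to 3. The groups did not overlap, but the controls were spread widely. The log2 fold change of Scd1 was 0.57 ± 0.19 (SE, 95% interval 0.12 to 1.02), with an unadjusted p of 0.0189 and an edgeR adjusted p of 0.0639. Without control 3 the log2 fold change was 0.35 (edgeR adjusted p = 0.0199) and without control 1 it was 0.79 (edgeR adjusted p = 0.0113), and both passed. Scd1 also passed with counts divided by 4 (edgeR adjusted p = 0.0490) and with the replicate number as a block (edgeR adjusted p = 0.0466), which makes 4 of the 15 other settings, whose adjusted p ran from 0.0113 to 0.217. The ratio of Scd1 to Elovl6 was 50.004, 47.1 and 36.1 in the controls and 21.0, 22.4 and 21.5 in the extract libraries. The related desaturase genes, named after their values were seen, were low, Scd2 at 2.99 and 1.70 FPKM (edgeR adjusted p = 0.141) and Scd3 at 0.118 and 0.180 FPKM in control and extract (edgeR adjusted p = 0.762), and could exchange reads with Scd1. Scd2 read 1.38, 3.27 and 4.32 FPKM across controls 1 to 3, against 1.71, 1.76 and 1.62 FPKM across extract 1 to 3, so its groups overlapped.

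**Figure D3:**
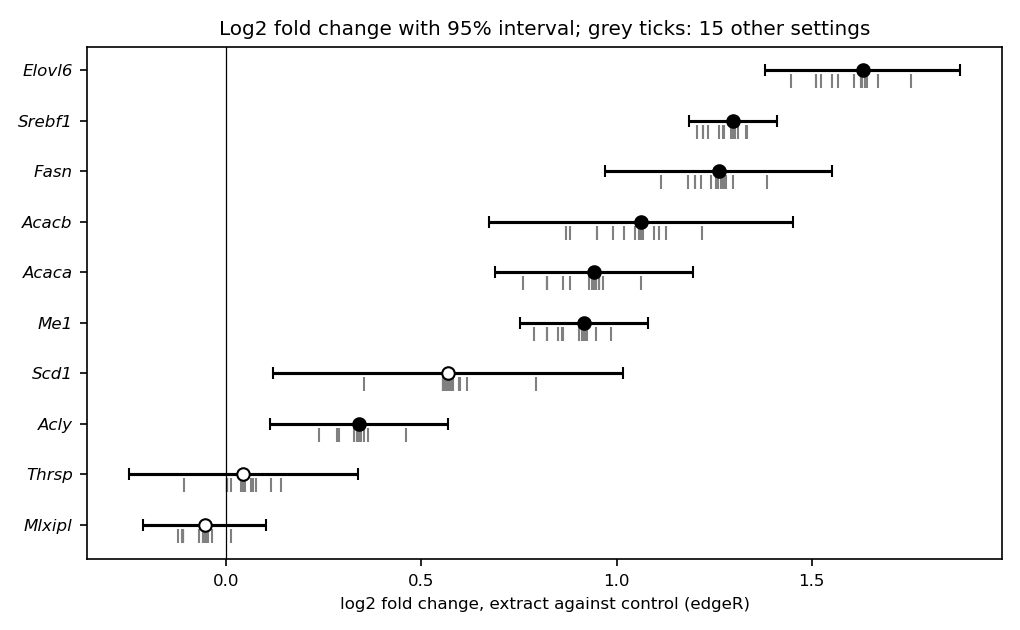
Log2 fold change of the 10 genes, extract against control, from edgeR (horizontal axis), with the 95% interval and with filled circles for an adjusted p under 0.05. Grey ticks give the value under each of 15 other settings, and those of Scd1 run from 0.35 without control 3 to 0.79 without control 1.

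The genes that supply acetyl-CoA and NADPH moved by different amounts. Acly (ENSMUSG00000020917, chromosome 11, 100476353 to 100528000, minus strand) read 38.4, 33.4 and 27.9 FPKM across controls 1 to 3, against 41.3, 39.8 and 40.0 FPKM across extract 1 to 3. The groups did not overlap, and control 1 was close to the extract libraries. Acly rose 1.27-fold, with a log2 fold change of 0.34 and an SE of 0.10 (edgeR adjusted p = 0.0363). This call was lost without control 2 or any 1 extract library (edgeR adjusted p of 0.0897 to 0.116), without the filter on low counts (edgeR, 0.0618) and with limma on FPKM in each form run (0.0523 to 0.184). Me1 (ENSMUSG00000032418, chromosome 9, 86581371 to 86695953, minus strand), the NADPH source, read 9.25, 8.52 and 7.70 FPKM across controls 1 to 3, against 16.04, 14.96 and 15.1 FPKM across extract 1 to 3. It rose 1.89-fold, with a log2 fold change of 0.92 and an SE of 0.07 (edgeR adjusted p = 9.26e-05), and the groups were well apart. The ratio of Fasn to Acly was 0.702, 0.738 and 0.644 in the controls and 1.32, 1.33 and 1.299 in the extract libraries, so Fasn stood below Acly in every control and above it in every extract library.

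Thrsp (ENSMUSG00000035686, chromosome 7, 97412938 to 97417730, minus strand) encodes Spot14, a small protein tied to lipogenesis whose gene is known as a target of thyroid hormone, SREBP1 and ChREBP. It read 225, 221 and 153 FPKM across controls 1 to 3, against 196, 210 and 187 FPKM across extract 1 to 3. The extract libraries lay between control 3 and the other controls. The log2 fold change was 0.04 with a 95% interval of -0.25 to 0.34 (edgeR adjusted p = 0.831), and -0.11 without control 3 (edgeR adjusted p = 0.134). Mid1ip1, which encodes MIG12, the relative and binding partner of Spot14 that activates acetyl-CoA carboxylase, read 8.64, 8.25 and 6.93 FPKM across controls 1 to 3, against 20.3, 19.9 and 17.0 FPKM across extract 1 to 3. Mid1ip1 rose 2.50-fold (edgeR adjusted p = 7.12e-05), and the Thrsp interval ends at 0.34 where the log2 fold change of Mid1ip1 was 1.32 with an SE of 0.10. The ratio of Thrsp to Fasn was 8.34, 8.98 and 8.54 in the controls and 3.58, 3.95 and 3.60 in the extract libraries.

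**Figure D4:**
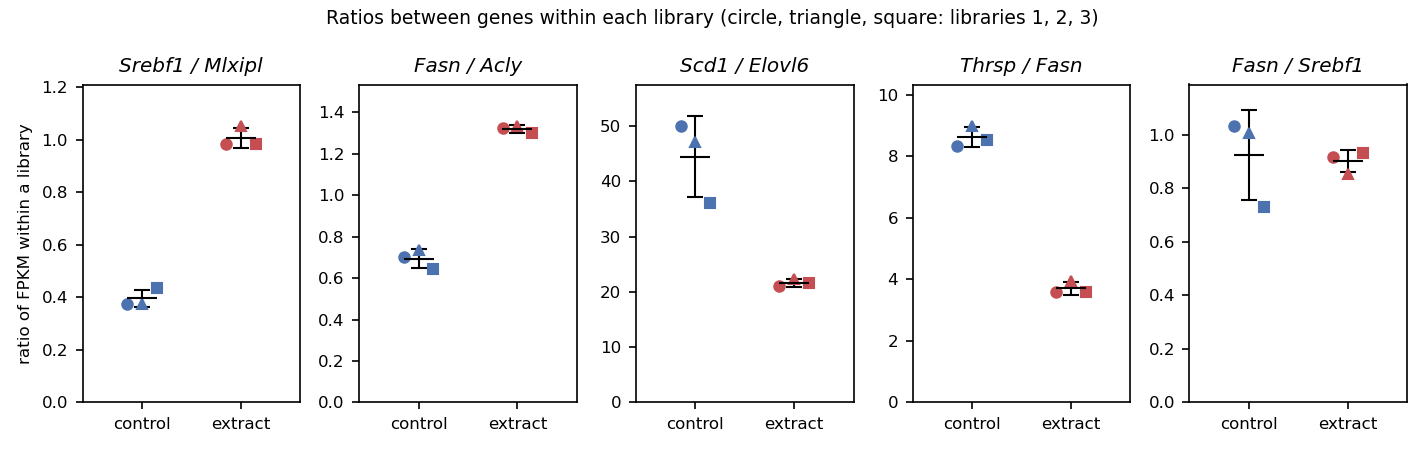
Ratios of FPKM between genes within each library (vertical axes, from 0), with control in blue, extract in red and the mean and SD in black. The Srebf1 to Mlxipl and Fasn to Acly ratios were higher and the Scd1 to Elovl6 and Thrsp to Fasn ratios lower in all 3 extract libraries, while the Fasn to Srebf1 ratio overlapped at 0.730 to 1.03 in control and 0.855 to 0.933 in extract.

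The order of the levels, which FPKM allows because it is per length, changed around the regulators. In control the mean order was Scd1, Thrsp, Mlxipl, Acly, Srebf1, Fasn, Me1, Elovl6, Acaca and Acacb, and the neighbours Scd1 and Thrsp, Srebf1 and Fasn, Me1 and Elovl6, and Acaca and Acacb overlapped across libraries. In extract it was Scd1, Thrsp, Srebf1, Mlxipl, Fasn, Acly, Elovl6, Me1, Acacb and Acaca. There the neighbours Srebf1 and Mlxipl, and Acacb and Acaca, were those that overlapped. By mean level among all tested genes, Srebf1 moved from rank 1294 in control to 615 in extract and Elovl6 from 3928 to 1571, while Thrsp was at 202 and 198.

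The control libraries differed among themselves in these genes more than the extract libraries did. Control 1 was the highest control for all 10 genes and control 3 the lowest for 9 of them, against 32.8% and 39.1% of the 4881 tested genes with a mean of at least 5 FPKM. The median coefficient of variation over the 10 genes was 17.0% in control and 3.56% in extract, where those 4881 genes had 5.44% and 4.14%. Srebf1 was the exception, at 3.63% in control and 5.54% in extract, while Scd1 was at 31.2% and 2.31% and Acacb at 26.3% and 6.29%. Without control 3 the log2 fold changes were 1.295 for Srebf1, 1.52 for Elovl6, 0.87 for Acacb, 0.86 for Me1 and 0.82 for Acaca. Without control 1 they were 1.33 for Srebf1, 1.75 for Elovl6, 1.22 for Acacb, 0.98 for Me1 and 1.06 for Acaca. In each of these comparisons 8 of the 10 genes were called, with Scd1 added.

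The genes closest to Srebf1 and Mlxipl across the 6 libraries were found by the root mean square difference of their log2 CPM patterns, each less its mean over the libraries, among 4556 other tested genes with a mean of at least 5 FPKM and a symbol that is no predicted or RIKEN gene model. For Srebf1 these were Acsl4, an acyl-CoA synthetase for arachidonate, at 0.06, Olfml1 at 0.07, Cyp39a1, an oxysterol hydroxylase, at 0.08, Tgm1 at 0.08 and Zbp1 at 0.08. Fasn, at rank 46 with a difference of 0.17, was the nearest of the other 9 genes, ahead of Me1 at rank 68, Elovl6 at 75, Acaca at 82 and Acacb at 105. Thrsp and Mlxipl were at ranks 2255 and 2725. For Mlxipl the closest were Dcaf7 at 0.03 and Dohh, Pla1a, Cyp4v3 and Cyp3a41a at 0.04 each. These patterns include the difference between control and extract, so a small value asks for a like fold change. The 5 genes nearest to Srebf1 had log2 fold changes of 1.17 to 1.305. Whether any of these genes are regulated together was not tested.

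Genes around the pathway were counted in 10 lists, of which those on SREBP control came first. The counts of each list stand against 14.2% of all 18071 genes tested called higher and 12.8% called lower. No list was tested against these shares. In the list of SREBP processing and partners, 7 of 18 genes rose and 3 fell, with a median log2 fold change of 0.15. Insig1, which holds SREBP in the endoplasmic reticulum and is itself an SREBP target, read 31.8, 29.1 and 26.0 FPKM across controls 1 to 3, against 54.1, 60.4 and 56.2 FPKM across extract 1 to 3. Insig2, its relative with the same anchoring role, read 22.2, 22.3 and 25.7 FPKM across controls 1 to 3, against 11.6, 11.7 and 11.03 FPKM across extract 1 to 3. The pair thus moved in opposite directions, Insig1 up 2.05-fold (edgeR adjusted p = 6.58e-05) and Insig2 down by 0.97 on the log2 scale (edgeR adjusted p = 6.67e-05). Srebf2, the regulator of cholesterol synthesis, rose 1.63-fold and Rxra, the partner of LXR, 1.27-fold. The LXR genes Nr1h3 and Nr1h2, named after their values were seen, had log2 fold changes of 0.12 and -0.13 (edgeR adjusted p = 0.126 and 0.125). Among LXR targets 4 of 9 rose and 1 fell, with a median of 0.12. Cyp7a1, the rate-limiting enzyme of bile acid synthesis, rose 10.4-fold, Abca1, a cholesterol exporter, 1.61-fold and Lpcat3, a phospholipid remodelling enzyme, 1.26-fold, while Mylip, which degrades the LDL receptor, fell by 0.62 on the log2 scale. The lower calls of the SREBP list numbered 1 without control 1, control 2, extract 2 or extract 3. The Lpcat3 call was lost with unfiltered FPKM values in limma (adjusted p = 0.0692), which left 2 higher calls among the LXR targets.

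Among ChREBP partners and glucose-responsive targets, 7 of 19 genes rose and 5 fell, with a median of 0.02. Pfkfb1, the liver isoform of the enzyme that sets fructose 2,6-bisphosphate, rose 1.86-fold. Klf10, a glucose-responsive repressor, fell by 0.81 on the log2 scale and Mlxip, the relative of Mlxipl known as MondoA, by 0.97. Among the common readouts of ChREBP, named after their values were seen, Pklr was at 71.5 and 83.1 FPKM (mean of control and extract) and Txnip at 20.2 and 21.96 FPKM. Both were called higher, 1.21-fold and 1.14-fold, at edgeR adjusted p = 0.0393 and 0.0281, and in 5 of 15 other settings each. Of this list 4 genes were higher and 3 lower without control 2 or extract 1, and 3 higher and 3 lower without extract 2 or extract 3. Without the filter on low counts, edgeR called 4 higher and 5 lower.

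For acetyl-CoA and citrate supply, 7 of 15 genes rose and 1 fell, with a median of 0.14. Aco1, the cytosolic aconitase, rose 1.303-fold, Slc25a1, the mitochondrial citrate carrier, 1.27-fold, Acss2, which makes acetyl-CoA from acetate, 1.52-fold and Pdp2, a pyruvate dehydrogenase phosphatase, 1.47-fold. The higher calls of that list numbered 3 without control 2 and 4 without extract 2, and the lower call was lost without any 1 library other than control 3. For NADPH supply, 2 of 10 rose and 3 fell, with a median of -0.10. Idh1, the cytosolic isocitrate dehydrogenase, rose from 64.5 ± 2.31 to 91.6 ± 3.24 FPKM (SD, n = 3), and Tkt, a transketolase, rose 1.197-fold. G6pdx, the first enzyme of the pentose phosphate pathway and another NADPH source, fell by 0.64 on the log2 scale from 2.86 ± 0.281 to 1.76 ± 0.215 FPKM (SD, n = 3), and Rpia of the same pathway fell by 0.52. The NADPH genes Me1 and Idh1 thus rose while G6pdx fell. The higher calls of the NADPH list numbered 1 without control 2 or any 1 extract library, and the other settings kept the call of Tkt in 4 of 15 and that of Rpia in 11 of 15. Pdp2 was not called without control 2, Acss2 was not called without extract 2, and unfiltered FPKM values in limma called neither Slc25a1 nor Acss2 (adjusted p = 0.0630 and 0.0813).

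Beyond palmitate, 7 of 12 tested genes of the list of other desaturases and elongases rose and 0 fell, with a median of 0.37. The lower calls of that list numbered 1 without control 1 or extract 3. Fads2, the delta-6 desaturase of polyunsaturated fats, rose from 88.1 ± 11.3 to 173 ± 3.10 FPKM and Fads1, the delta-5 desaturase, from 57.2 ± 6.72 to 99.3 ± 0.712 FPKM (SD, n = 3). Hacd3, a dehydratase of the elongation cycle, rose 1.44-fold and the elongase Elovl2 1.299-fold. In the list of fatty acid esterification and other SREBP1 targets, 8 of 14 tested genes rose and 3 fell, with a median of 0.29. Aacs, which makes acetoacetyl-CoA in the cytosol, rose 2.36-fold, the acyl-CoA synthetase Acsl3 2.005-fold and Gpam, an acyltransferase that opens the route to triglyceride, 1.98-fold. Lpin1, a phosphatidate phosphatase and transcriptional coactivator, fell by 0.80 on the log2 scale. The higher calls of that list numbered 5 without extract 1 or extract 2, and 5 with limma on FPKM as deposited.

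**Figure D5:**
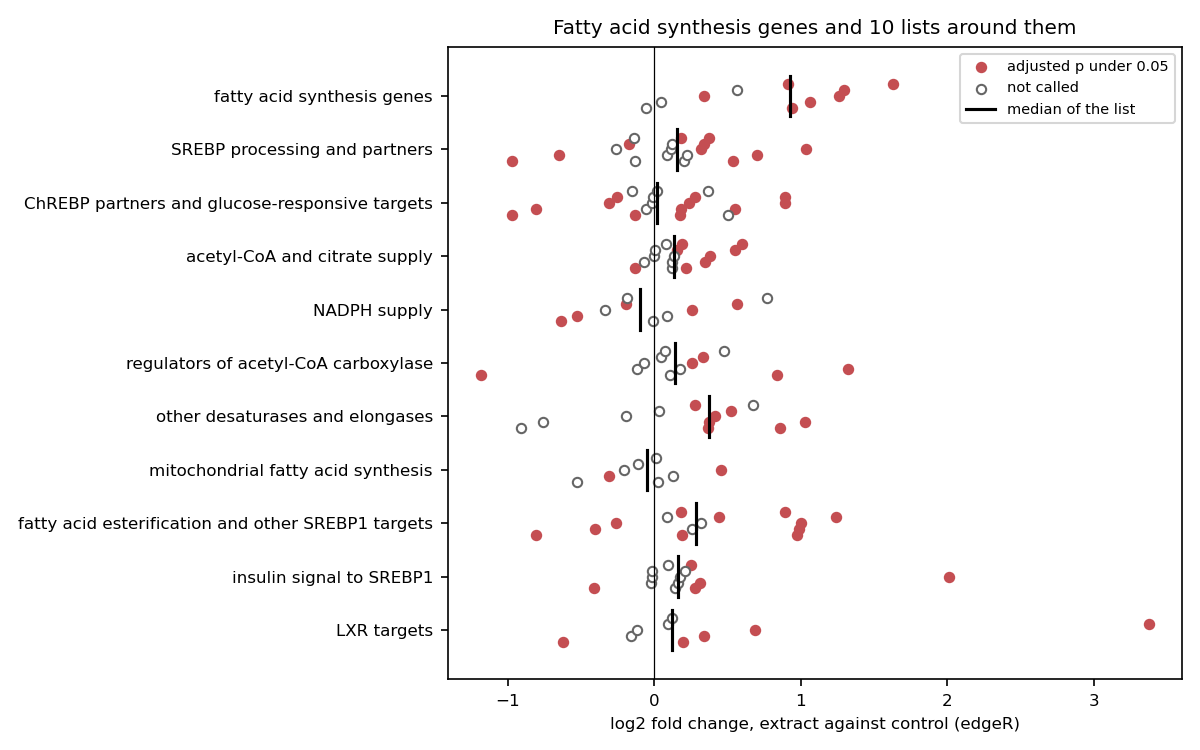
Log2 fold change of each tested gene (horizontal axis, edgeR) in the 10 fatty acid synthesis genes and in 10 lists around them, with red for an adjusted p under 0.05, open circles for the rest and a black bar for the median. The median of the 10 genes is 0.93 and those of the lists run from -0.10 for NADPH supply to 0.37 for the other desaturases and elongases.

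For the insulin signal to SREBP1, 4 of 13 genes rose and 1 fell, with a median of 0.16. Irs2, an adaptor of the insulin receptor, rose 4.03-fold from 1.40 ± 0.238 to 5.42 ± 0.325 FPKM (SD, n = 3), Akt1 1.24-fold and the receptor Insr 1.19-fold. Foxo1, the factor that insulin signalling keeps out of the nucleus, fell by 0.41 on the log2 scale. Irs2, Akt1, Insr and Foxo1 were called in each of the 15 other settings.

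Reads of overlapping entries could not be told apart from those of the genes, since no use of strand is given. In the deposited table, 12 other entries overlapped 7 of the 10 genes, and 5 of them passed the filter on low counts. Mir6921, on the same strand inside Srebf1, was at 2.415 and 3.74 FPKM in control and extract and was not called (edgeR adjusted p = 0.337). The other 4 lay on the opposite strand. Gm11437, opposite Acaca, was at 2.84 and 3.38 FPKM, and Gm35986, opposite the start of Elovl6, at 2.45 and 2.71 FPKM. Rai1, which meets the end of Srebf1, was at 1.38 and 1.55 FPKM, and Gm43500, within Mlxipl, at 0.713 and 0.772 FPKM.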

How the data were processed

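The labels' protocols name oligo(dT) beads for preparing the 6 liver libraries. Listed in the submitters' processing notes, with no step attached, are HISAT2 2.0.4, cutadapt 1.9 and StringTie 1.3.4d, alongside edgeR. The build and the use of strand are not given in the sources used here. Among 30889 gene identifiers, 99.7% are in GENCODE M21 on GRCm38, where 7 of the 10 gene spans are the same, and the printed positions follow the deposited table.

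The authors deposited estimated counts, whole numbers, that entered the tests unchanged. Their low values peak at 4 (6292 entries, against 4117 at 3 and 2133 at 5), so a single read pair may add several counts. FPKM was computed by the authors, per the file headers. Another 6 columns of per-sample values match no sample and were not used.

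edgeR 4.0.16 in R 4.3.3 (filterByExpr, TMM factors, quasi-likelihood test, two-sided, Benjamini-Hochberg over 18071 genes) compared extract with control. Each SE is the log2 fold change divided by the root of its F value. Alternatives were DESeq2 1.42.0, limma 3.58.1 on log2(FPKM + 0.5) with other pseudocounts, filters and scaling, edgeR without a filter, on counts divided by 4, with a replicate block or against a fold change of 1.2, and each library left out. Only the group tests were tried on simulated counts, with edgeR without its filter, DESeq2, and limma on CPM in place of FPKM. The other steps were not tried in this way. The genes and lists were chosen with earlier results of these data known. Named are the 10 genes, up to 4 genes of each list by smallest p, and the 5 genes nearest to Srebf1 and Mlxipl. A gene that this rule names is not reported here. Sequences are from RefSeq on GRCm38.p6.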

Additional observations from a re-analysis of the deposited data

How the results depend on the processing

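Of 15 settings with a value for each gene, all kept the direction and the call of Srebf1, Acaca, Acacb, Fasn, Me1 and Elovl6, and none called Mlxipl or Thrsp. The Acly call was lost in 10 of them and Scd1 was called in 4. Of the 10 genes, 6 to 8 were called higher and 0 lower in all 16 settings, including the test against a fold change of 1.2. Over all genes, 4870 were called, 2561 higher and 2309 lower. With a library left out the calls numbered 3237 (without extract 2) to 4706, and the lower calls 1442 (without control 2), 1461 (without extract 2) and 1480 (without extract 1) to 2153. Against a fold change of 1.2 the calls numbered 1916, 978 higher and 938 lower, since this test asks for a larger change. With unfiltered FPKM values limma called 1485 genes higher, and the cause was not tested. Of all calls, 52.6% were higher in the main test, 41.3% with limma on FPKM as deposited and 50.1% with TMM factors on FPKM. Of 70 called genes in the 10 lists, 39 were called in all other settings that gave a value, and 0 changed sign in any. With unfiltered FPKM values in limma the higher calls numbered 1 for acetyl-CoA and citrate supply, 3 for the ChREBP list and 2 each for LXR targets and regulators of acetyl-CoA carboxylase, and against a fold change of 1.2 they numbered 0, 2, 2 and 2. That test also left 3 higher calls in the SREBP list, 4 among the other desaturases and elongases and 1 for the insulin signal.

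Libraries with the same number did not deviate together (correlations of -0.12, -0.03 and -0.09 for numbers 1, 2 and 3), and each library correlated best with one of another number. With the replicate number as a block, 3746 genes and 8 of the 10 fatty acid synthesis genes were called. The 3 libraries of each group limit the precision, and a value of a few counts may rest on a single read pair.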

Other observations

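Mitochondria hold a separate fatty acid synthesis system of single-function enzymes that feeds lipoate production. In the list of that system, 1 of 8 tested genes rose and 1 fell, against 14.2% and 12.8% of all genes tested. The median log2 fold change for that system was -0.05. Oxsm, its ketoacyl synthase, rose 1.37-fold (edgeR adjusted p = 0.00520) and Mecr, its enoyl reductase, fell by 0.31 on the log2 scale (edgeR adjusted p = 0.0170). The Mecr call was lost without control 2, control 3, extract 2 or extract 3 and with the replicate block, at an edgeR adjusted p of up to 0.0752.

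AMP-activated protein kinase, which phosphorylates and inhibits acetyl-CoA carboxylase, had subunit genes moving in both directions. In the list of regulators of acetyl-CoA carboxylase, 4 of 12 genes rose and 1 fell, against 14.2% and 12.8% of all genes tested. The median of the list was 0.14. Prkaa2, a catalytic subunit, rose from 4.11 ± 0.134 to 7.05 ± 0.356 FPKM and Prkab2, a scaffold subunit, fell from 2.83 ± 0.346 to 1.19 ± 0.214 FPKM (SD, n = 3, edgeR adjusted p = 4.85e-05 and 0.000896). Prkaa1, Prkab1, Prkag1 and Prkag2, the other subunits named after their values were seen, were not called, with edgeR adjusted p of 0.704, 0.544, 0.506 and 0.115. Mlycd, which degrades malonyl-CoA, rose 1.19-fold (edgeR adjusted p = 0.0115), and limma with unfiltered FPKM values did not call it (adjusted p = 0.0546).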
